A study of Mus musculus with 8 samples.

Results

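This comparison asked what the active form of vitamin D did by itself, without an inflammatory stimulus, to mouse dendritic cells that carry an intact vitamin D receptor. It is made of 2 of the 8 arrays of the series: wild-type (VDRwt) dendritic cells given 1a,25-dihydroxyvitamin D3 (VD3) against VDRwt dendritic cells left untreated, with 1 array a side. Probe sets were kept when their detection call was Present (P) on at least 1 of the 2 arrays, which held for 12146 of 22626 probe sets. Of these, 10379 were Present on both arrays, 1286 only on the untreated array and 481 only on the VD3 array. The 11102 kept probe sets with a single gene symbol stood for 7241 genes.

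Dendritic cells were grown from hind-leg bone marrow of male mice aged 9 weeks. All groups went through the same cultures: progenitors were expanded with SCF, hyperIL-6, Flt-3L, long-range human IGF-1, dexamethasone and GM-CSF, and then differentiated with GM-CSF at 250 U/ml. On day 7 of differentiation cells received VD3 at 1e-06 M for 30 min or nothing, and they were then kept for 4 h with or without TNFa at 50 ng/ml. The other groups were VDRwt TNFa, VDRwt VD3+TNFa and the same 4 treatments in VDRmut cells, from mice whose receptor gene lacks the part that encodes the DNA-binding domain. Neither the number of mice per culture nor a vehicle for the untreated cells is given in the labels, and every cell had been exposed to dexamethasone, itself a nuclear receptor ligand, during expansion. No condition was repeated, so changes between 2 arrays are sizes without a test. The single test is a limma fit over all 8 arrays, in which the VD3 effect in VDRwt is the average of the pair without and the pair with TNFa.

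The vitamin D receptor (VDR) is a nuclear receptor that binds DNA as a partner of a retinoid X receptor and switches on target genes when VD3 occupies it. The best known target is Cyp24a1, the hydroxylase that starts the breakdown of VD3 and so limits the signal. In dendritic cells VD3 is known for holding back maturation, with less costimulation and antigen presentation and with more of the features called tolerogenic. Dendritic cells are the cells that present antigen to T cells, and TNFa is one of the cytokines that mature them.

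On these arrays VD3 alone left most genes close to their untreated signal. Cyp24a1 went from an Absent call to a Present call, the Vdr probe set Present on both arrays had 93.7 untreated and 185.7 with VD3, Rxra had 140.9 and 241.1, and 23 of 25 genes of glycolysis and the hypoxia response were higher by mostly small amounts. Vdr was also higher with VD3 in VDRmut cells, with and without TNFa, on both of its probe sets. The chemokine genes Cxcl2 and Ccl3, the prostaglandin E2 receptor gene Ptger4 and the leukotriene receptor gene Cysltr1 were more than 2-fold lower. A second Cysltr1 probe set differed by 0.06 (log2). Cxcl2, Ccl3, Ptger4 and Cysltr1 were also lower with VD3 in VDRmut cells without TNFa. In the VDRwt TNFa pair all of them but Ptger4 were higher with VD3. No probe set passed the limma test for the VD3 effect in VDRwt at an adjusted p of 0.05, so each of these is a difference between single arrays.

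The promoters below are those of genes on which the description turns: the receptor gene itself and 3 genes of the hypoxia response (Hilpda, Ddit4 and Hk2) that were higher with VD3 in both VDRwt pairs and not 1.5-fold higher in either VDRmut pair. These 3 were chosen by those values and do not stand for the glycolysis and hypoxia list, to which Hilpda does not belong. In VDRmut with TNFa the list's median VD3 change was 1.19 (log2). Vegfa, its largest change with VD3 alone in VDRwt, was higher there by 1.30. Each sequence is the 250 bases before the annotated start on the gene's own strand, from RefSeq on the GRCm38.p6 assembly. In the Vdr promoter, at chr15:97908297-97908546 on the minus strand, capitals mark a nuclear receptor half-site (the letters AGGTCA, the variant GGGTCA, the variant AGTTCA or the variant GGTTCA, on either strand). In the others capitals mark the core ACGTG of the hypoxia response element, on either strand. Hilpda lies at chr6:29272238-29272487 on the plus strand, with the first of 2 listed windows shown, Ddit4 at chr10:59951771-59952020 on the minus strand and Hk2 at chr6:82774455-82774704 on the minus strand.
Vdr: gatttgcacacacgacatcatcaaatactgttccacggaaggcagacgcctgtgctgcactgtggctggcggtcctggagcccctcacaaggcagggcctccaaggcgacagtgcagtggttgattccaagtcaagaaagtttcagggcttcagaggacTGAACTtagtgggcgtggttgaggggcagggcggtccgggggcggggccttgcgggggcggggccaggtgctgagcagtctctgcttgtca
Hilpda: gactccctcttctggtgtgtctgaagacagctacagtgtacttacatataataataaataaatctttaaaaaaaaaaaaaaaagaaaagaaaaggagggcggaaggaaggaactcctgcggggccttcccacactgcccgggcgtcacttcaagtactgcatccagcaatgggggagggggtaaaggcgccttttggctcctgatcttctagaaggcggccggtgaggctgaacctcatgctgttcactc
Ddit4: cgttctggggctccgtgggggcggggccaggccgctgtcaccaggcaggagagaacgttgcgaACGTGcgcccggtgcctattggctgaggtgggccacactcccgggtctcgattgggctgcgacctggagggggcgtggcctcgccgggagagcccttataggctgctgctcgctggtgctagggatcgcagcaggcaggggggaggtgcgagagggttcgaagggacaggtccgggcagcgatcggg
Hk2: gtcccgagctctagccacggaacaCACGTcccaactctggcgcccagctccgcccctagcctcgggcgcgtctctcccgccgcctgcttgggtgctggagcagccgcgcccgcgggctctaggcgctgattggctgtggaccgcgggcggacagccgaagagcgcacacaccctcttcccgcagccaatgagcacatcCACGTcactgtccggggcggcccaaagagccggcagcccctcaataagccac
The Vdr window held 1 half-site, on the strand opposite to the gene, where 33.2% of the 5938 kept genes with a promoter in the table and 38.4% of all 27025 held at least 1. Of the 20 kept genes of the vitamin D list, 13 had a promoter and 3 of them held a half-site. The hypoxia core appeared once in Ddit4, at 2 places in Hk2 and nowhere in the Hilpda window. It was present in 15 of the 24 glycolysis and hypoxia genes with a promoter (62.5%), against 22.5% of the kept genes and 16.6% of all. The list was made of genes known for glycolysis and the hypoxia response, so a high share could be found whatever VD3 did. The share was not split by VD3 change, and no weight rests on it. These counts describe letters in short windows and say nothing of binding.

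Across the kept probe sets the median log2 change was 0.01, and 87.3% of probe sets differed by less than 1.5-fold. At least a 2-fold difference was seen for 374 probe sets (3.08%), of which 225 were higher with VD3 (1.85%) and 149 lower (1.23%). Quantile normalization turned this balance, to 142 higher and 209 lower (40.5% of calls higher against 60.2%). As genes, each represented by its brightest probe set, 134 were higher (1.85%) and 56 lower (0.773%). Differences of 4-fold or more were found for 24 probe sets on the higher side and 15 on the lower side. The 2-fold limit cut through a crowded range: 66 probe sets lay between 2 and 2.1-fold, and 102 lay between 1.9 and 2-fold, just outside.

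Many of these differences came from dim probe sets. Among the 225 higher probe sets, 82 were Present on both arrays and 124 only with VD3. Among the 149 lower ones, 80 were Present on both and 69 only without VD3. When both arrays had to be Present, the counts were 82 higher (0.790%) and 80 lower (0.771%), close to even. The share past 2-fold was 13.6% where the brighter of the 2 signals was under 50, 2.26% between 100 and 200, and 0.569% between 500 and 2000. A 2-fold difference at a bright probe set was therefore rare, and one at a dim probe set was not.

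**Figure D1:**
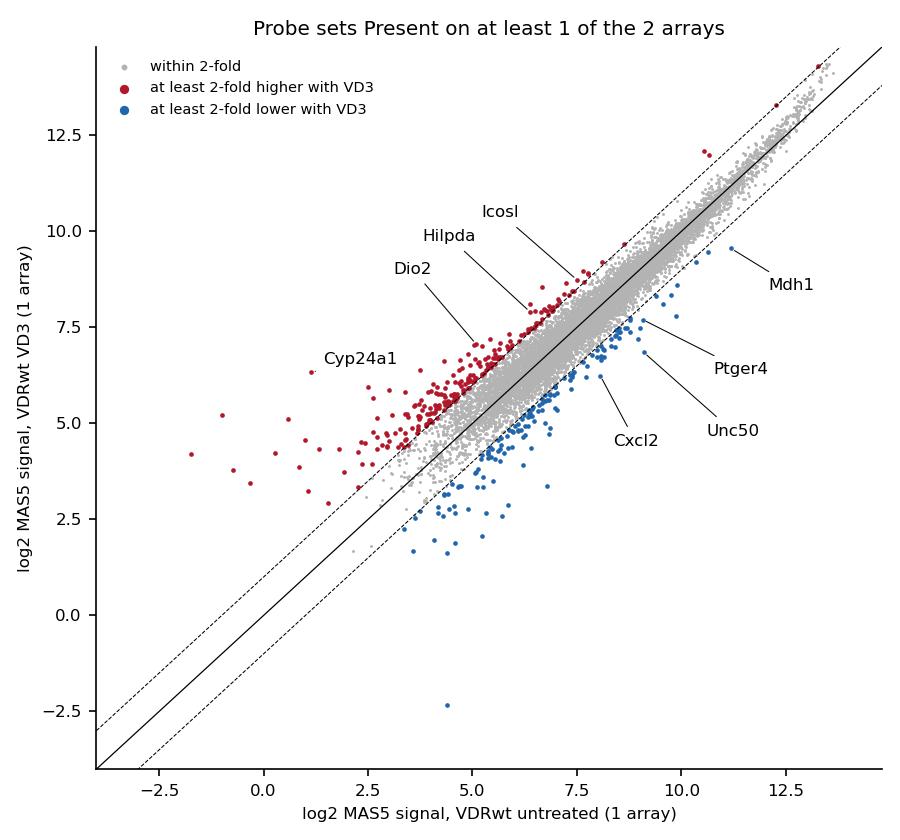
log2 MAS5 signal of each of the 12146 kept probe sets on the VDRwt VD3 array (vertical) against the VDRwt untreated array (horizontal); the solid line marks equal signal and the dashed lines 2-fold. Red (225) and blue (149) points lie past 2-fold and gather at low signals, and the cloud bends upward at the bright end.

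The pair itself was technically close in most respects. Both arrays were scanned on the same day with the same fluidics protocol, called 51.5% (untreated) and 48.0% (VD3) of probe sets Present and had actin 5′ to 3′ ratios of 0.865 and 0.889. The 9 probe sets of the hybridisation spikes, control transcripts of bacterial and phage origin added to the labelled RNA, were all higher on the VD3 array, by 1.18 to 1.77 on the log2 scale. In the other 3 VD3 pairs their median lay between -0.44 and 0.09. The 103 brightest probe sets (7000 or more on one of the 2 arrays) had a median log2 change of 0.42, against 0.07 for those between 2000 and 7000. The part that these shifts play in any gene's change was not tested. Of the markers of dendritic cells fixed for the check, 14 of 17 were Present, among them Itgax, Cd74 and H2-Aa, while Flt3, Cd209a and Xcr1 were Present on neither array.

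Markers of other cell types were checked on the same 2 arrays. None of 12 mast cell and basophil markers was Present on either array. Of the neutrophil markers 8 of 14 were Present, with Elane, Mpo, Prtn3 and Ctsg not Present, and their summed signal was 10898 untreated and 10040 with VD3. Outside these 2 arrays, the neutrophil sums were 3828 for VDRwt TNFa and 10911 for VDRwt VD3+TNFa. In VDRmut they were 32173 untreated, 27916 with VD3, 13654 with TNFa and 20738 with VD3+TNFa. The part of this in differences between pairs or genotypes was not tested. Of the macrophage and monocyte markers 11 of 13 were Present, with sums of 26733 and 36715. Most of that gap was Lyz2, lysozyme, which went from 10764 to 19639 in the brightest range. In T and NK cells 3 of 13 markers were Present, in B and plasmacytoid cells 3 of 11, in the erythroid line 5 of 12 and in stroma and endothelium 4 of 14. In bulk RNA, fewer cells of a type and less RNA per cell cannot be told apart.

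The vitamin D axis was read through 42 listed genes, of which 33 were on the array and 20 were kept. Cyp24a1 had a signal of 2.2, called Absent, on the untreated array and 80.3, called Present, on the VD3 array. Set against the lowest Present signal of the untreated array, 4.4, this is at least 18.3-fold, an estimate rather than a strict bound, since Absent signals as high as 36.9 occurred for the same probe set with TNFa. Its other Present call was 59.5 on the VDRwt VD3+TNFa array. On the 4 VDRmut arrays it was Absent at 7.0 to 28.2. The calls therefore followed VD3 in VDRwt cells, at low signals. In the limma fit the VD3 effect in VDRwt was 2.94 ± 1.26 (log2, SE; adjusted p = 0.999), and its difference from VDRmut was 3.06 (adjusted p = 1).

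Vdr, the receptor gene, was measured by a pair of probe sets that both read higher with VD3. The brighter one had 147.0, Absent, untreated and 253.3, Present, with VD3, a log2 difference of 0.79. The other was Present on both arrays, at 93.7 and 185.7, a difference of 0.99. With TNFa the latter probe set gave 33.2 without and 104.0 with VD3 in VDRwt cells, so the TNFa arrays were lower at each VD3 state. The VDRmut signals of that probe set ran from 6.3 to 67.2, Present only on the VD3 array, and were also higher with VD3, by 2.44 without and 2.79 with TNFa. The limma effect for it in VDRwt was 1.32 ± 0.41 (SE; adjusted p = 0.999). Whether these probe sets lie inside or outside the deleted part is not given in the sources used here.

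Rxra, the main partner of VDR, had 140.9 untreated and 241.1 with VD3, Present on both arrays. Its log2 changes were 0.77 and 0.99 in the VDRwt pairs and 0.08 and -0.31 in the VDRmut pairs, although the TNFa arrays of VDRwt called it Absent. Rxrb, a second partner, stayed at 160.4 and 154.4. The limma effect of Rxra in VDRwt was 0.88 ± 0.33 (SE; adjusted p = 0.999).

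Among other genes known as VDR targets, Hbegf, a growth factor of the EGF family, had 67.6, Absent, untreated and 130.0, Present, with VD3. In the VDRwt TNFa pair it had 35.1, Absent, without and 273.0, Present, with VD3. In VDRmut cells it was Absent on all 4 arrays, with 28.0 and 86.3 without TNFa and 29.0 and 27.2 with it. Dusp10, a phosphatase of stress kinases, had 28.1 and 65.2, but only the lower signal was called Present. Cd14, the endotoxin co-receptor and a strong VDR target in human monocytes, was at 1574.3 and 1479.1, a change of -0.09. Cdkn1a, which encodes the cell cycle inhibitor p21, was at 1535.9 and 1213.7, and its second probe set went the other way, by 0.45. Cebpb, a myeloid transcription factor, had 2580.7 and 3164.5. The list thus held a few higher genes and many that hardly differed.

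Over the 20 kept vitamin D genes, 12 were higher and 8 lower, 2 were at least 2-fold higher (Cyp24a1 and Dusp10) and none 2-fold lower. Its median log2 change was 0.24, beside 0.02 over all 7241 genes. Past 1.5-fold were Vdr, Rxra, Cyp24a1, Dusp10 and Hbegf, all higher. Of these only Rxra was Present on both arrays for the probe set used, and Vdr, Cyp24a1 and Hbegf were kept only through the VD3 array on which they were higher, so no weight rests on this count. Of the coactivators, Ncoa1 was at 0.37, Ncoa3 at -0.37 and Med1 at -0.45, with a second Med1 probe set at 0.13. With signals under 50 raised to 50 the median was 0.10. Of the 18 members in the limma fit, 0 were called.

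Genes of glycolysis and the hypoxia response, many of which are induced by the transcription factor HIF-1, were the list with the highest median. Of the 25 kept members 23 were higher and 2 lower, at a median log2 change of 0.31, beside 52.5% of all genes higher and a median of 0.02. Of the list, only Vegfa and Ddit4 reached 2-fold. Quantile normalization left the median at 0.28. In the VDRwt TNFa pair the list's median was 1.45, in the VDRmut pair without TNFa 0.03 and in the VDRmut pair with TNFa 1.19, so that in the presence of TNFa the list was also higher in receptor-mutant cells. None of its members was called by limma.

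Vegfa, the vascular endothelial growth factor, had 145.5 untreated and 331.9 with VD3, Present on both. A second probe set gave 166.7, Marginal, and 346.3, Present. In the VDRwt TNFa pair the first went from 26.8, Absent, to 362.2. In VDRmut cells it had 131.1 untreated and 124.3 with VD3, both Absent. With TNFa the VDRmut signals were 55.5, Absent, without and 136.5, Present, with VD3, a log2 change of 1.30. Both VDRwt arrays with VD3 stood above all others. The limma effect in VDRwt was 2.47 ± 0.61 (SE; adjusted p = 0.999), the difference from VDRmut 1.86 (adjusted p = 1).

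Hilpda, a hypoxia-inducible protein of lipid droplets that was not a member of the list, had 83.4 untreated and 238.7 with VD3. With TNFa it had 80.3 without and 492.5 with VD3. All 4 VDRmut signals, 100.8 to 146.5, lay between these extremes, and their VD3 changes were 0.05 and 0.54. It was 1 of only 2 genes at least 2-fold higher in both VDRwt pairs and under 1.5-fold in both VDRmut pairs. The limma effect in VDRwt was 2.07 ± 0.37 (SE; unadjusted p = 0.000603, adjusted p = 0.999), and the difference from VDRmut was 1.77 (unadjusted p = 0.0101, adjusted p = 1).

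Ddit4, an inhibitor of mTORC1 induced by hypoxia and by glucocorticoids, had 132.6 and 300.4 without TNFa and 235.3 and 467.4 with it in VDRwt cells. In VDRmut cells it had 221.4 and 138.6 without TNFa and 224.0 and 156.2 with it. VD3 arrays were thus the higher ones in VDRwt and the lower ones in VDRmut. The actin 5′ to 3′ ratio, a measure of RNA integrity, differed within both VDRmut pairs, at 0.444 (untreated) and 0.860 (VD3) without TNFa and at 0.839 (TNFa) and 0.449 (VD3+TNFa) with it, and lay between 0.781 and 0.889 on the 4 VDRwt arrays; its part in any difference between genotypes was not tested. The difference between the genotypes was 1.68 (limma, unadjusted p = 0.0051, adjusted p = 1). Hk2, the inducible hexokinase of the first step of glycolysis, had 574.7 and 1004.3 without TNFa and 520.2 and 1418.7 with it in VDRwt cells, while the VDRmut arrays lay between 827.1 and 939.7. Its limma effect in VDRwt was 1.13 ± 0.26 (SE; adjusted p = 0.999).

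Further members of this list were higher without reaching 2-fold. P4ha1, a collagen prolyl hydroxylase, had 312.8 and 622.6. Egln1, the oxygen sensor that marks HIF for breakdown, had 409.8 and 731.3. Hif1a itself had 1362.7 and 1659.7, a change of 0.28. The glycolytic enzymes Ldha and Pkm were at 0.22 each, and Hk1 and Pdk1 at -0.01 and -0.02. Pgk1 was 0.43 higher on its brightest probe set, whereas another of its probe sets, picked out after its values were seen, read 1592.9 untreated and 706.9 with VD3.

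**Figure D2:**
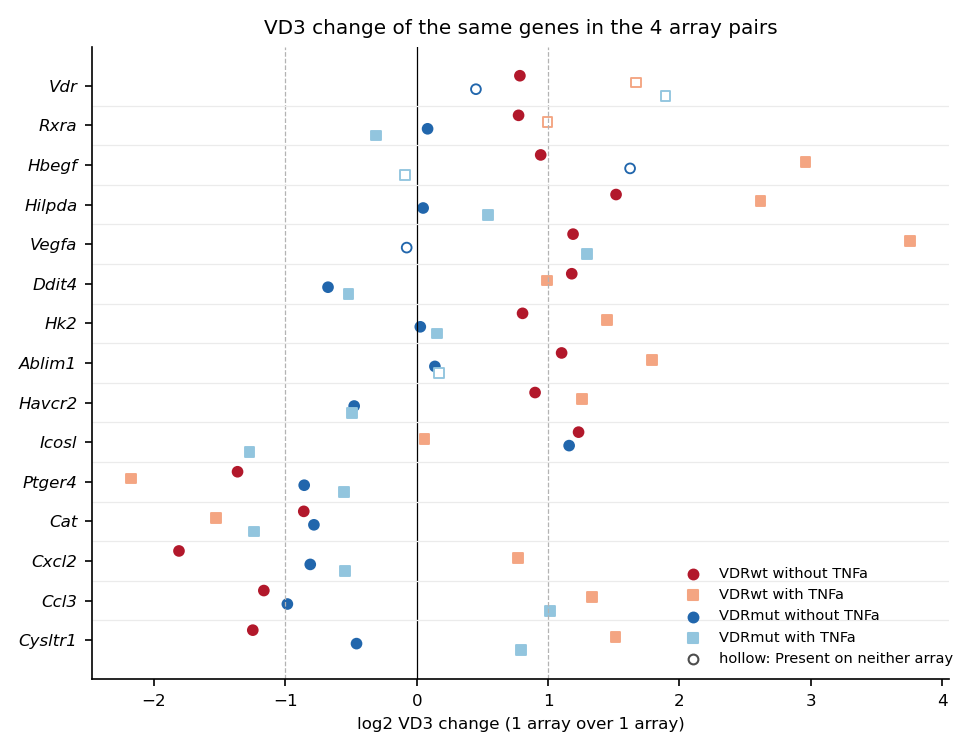
log2 VD3 change (horizontal, 1 array over 1 array) of 15 genes in the 4 array pairs, circles without and squares with TNFa, red shades VDRwt and blue shades VDRmut; hollow symbols mark pairs in which neither array was called Present. Rxra, Hilpda, Ddit4, Hk2, Ablim1 and Havcr2 have both red symbols to the right of both blue ones, the Rxra symbol of VDRwt with TNFa being hollow. Ptger4 has both to the left, whereas Cxcl2, Ccl3 and Cysltr1 change side between the VDRwt pairs. Rxra was named as a vitamin D gene. Hilpda and Ablim1 were named for changes past 2-fold in both VDRwt pairs and under 1.5-fold in both VDRmut pairs. Ddit4 and Havcr2 were named for a small limma p of the genotype difference. Hk2 was named for a small limma p of the VDRwt effect, so the choice of genes favours the separation.

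Chemokine genes gave 2 of the larger decreases in signal. Cxcl2, which attracts neutrophils, had 266.2 untreated and 75.9 with VD3, Present on both. Ccl3, which attracts monocytes and T cells, had 276.8 and 123.5. In the VDRwt TNFa pair both went the other way, Cxcl2 from 1017.9 to 1733.5 and Ccl3 from 323.1 to 816.1. In VDRmut cells without TNFa they were lower with VD3 as well, Cxcl2 at 202.8 and 115.6 and Ccl3 at 408.8 and 206.5. The lower signal with VD3 alone was thus seen in both genotypes. Over the 14 kept chemokines 5 were higher and 9 lower, with a median of -0.10. Ccl17, Ccl22 and Ccl5, the bright chemokines of dendritic cells, stayed between -0.20 and 0.25, and Ccl6 in the brightest range was at 0.68.

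Among receptors, Ptger4 and Cysltr1 were the ones named by the rule, each the only member of its list at least 2-fold lower. Ptger4, the EP4 receptor for prostaglandin E2, had 537.1 untreated and 208.6 with VD3. With TNFa the VDRwt signals were 2133.4 and 472.2. VDRmut signals were 725.8 and 400.7 without TNFa and 1177.1 and 800.8 with it. VD3 arrays were the lower ones in all 4 pairs. A second, dimmer probe set had 74.2 and 45.0 in this pair. The limma effect in VDRwt was -1.77 ± 0.34 (SE; unadjusted p = 0.000933, adjusted p = 0.999), and the difference from VDRmut was -1.06 (adjusted p = 1). Cysltr1, a receptor for cysteinyl leukotrienes, had 214.3 and 90.2, while with TNFa it had 43.5 without and 124.1 with VD3. Its second probe set differed by 0.06 in this pair. Ltb4r1, the receptor for leukotriene B4, had 547.9 and 693.0, and the medians of the 2 lists were 0.07 (eicosanoid synthesis) and 0.14 (chemokine and leukotriene receptors).

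Judged by the brightest probe set, 1 of the 19 kept genes of costimulation and maturation was at least 2-fold apart. Icosl, the ligand of the T cell costimulator ICOS, had 181.4 and 426.0, and a second probe set went from 23.4, Absent, to 54.6, Present. It read the same way in VDRmut cells without TNFa, at 202.6 and 452.7. With TNFa its changes were 0.06 in VDRwt and -1.27 in VDRmut. The rest of the list leaned slightly lower: 13 of 19 were lower, at a median of -0.20, beside 0.02 over all genes. Cd86, a ligand of CD28, had 280.9 and 255.6. Cd83, a maturation marker, had 548.2 and 417.3. Cd40 had 85.1, Present, and 69.2, Absent, and Cd80 had 125.9 and 144.3 on its brightest probe set. Another Cd80 probe set was higher by 1.06, past 2-fold, and the median of the gene's other 2 kept probe sets was 0.38. Cd274 and Pdcd1lg2, the ligands of the inhibitory receptor PD-1, were at -0.08 and -0.40. The list's median was -1.36 in the VDRwt TNFa pair, 0.18 in VDRmut without TNFa and -0.84 in VDRmut with TNFa, so the lower values with TNFa were found in both genotypes.

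Genes of MHC class II presentation had a median of 0.12 over 17 kept members, with 0 past 2-fold. Cd74, the invariant chain, had 10252 and 16568, and Ctss, the protease that cuts it, 11204 and 17221. H2-Aa had 8443.9 and 12296, whereas H2-Ab1, H2-Eb1 and H2-DMa differed by 0.12, 0.02 and 0.04. Ciita, the master regulator of the class II genes, had 185.6 and 166.1. The members with the larger increases in signal were mostly in the brightest range, whose median over all 103 probe sets was 0.42. After quantile normalization the list's median was 0.

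Cytokine genes showed little. Vegfa aside, Il10 had 23.4 and 37.1, Il12b 78.2 and 79.1 and Il6 31.3 and 30.3, all Present at low signals. Il1b had 1636.7 and 1333.0, and Tgfb1 had 2834.8 and 3593.2. Over the 14 kept members 7 were higher and 7 lower, at a median of -0.01. Among 24 listed tolerogenic genes on the array 21 were kept, with a median of 0.10 and Icosl as the one past 2-fold.

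The other lists stayed near the median of all genes. NF-kB subunits and inhibitors were at -0.11 (20 kept, 0 past 2-fold), C-type lectins and endocytic receptors at -0.11 with 16 of 22 lower, and Toll-like receptors and their adaptors at -0.08. Immediate early genes were at -0.11. Oxidative phosphorylation was at -0.05 over 34 genes and sterol and fatty acid metabolism at -0.02 over 31. Heat shock genes were at 0.03, interferon-stimulated genes at 0.13, and genes of alternative activation and tissue repair at 0.11. Cell cycle and replication genes had a median of 0.21 with 20 of 29 higher, which was 0.07 when all probe sets of a gene were averaged. Among dendritic cell transcription factors 1 of 20 passed 2-fold: Tcf4, a factor of plasmacytoid cells, had 126.3 and 61.4, but its other probe sets lay between -0.32 and 0.13. No member of any list was called by limma.

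**Figure D3:**
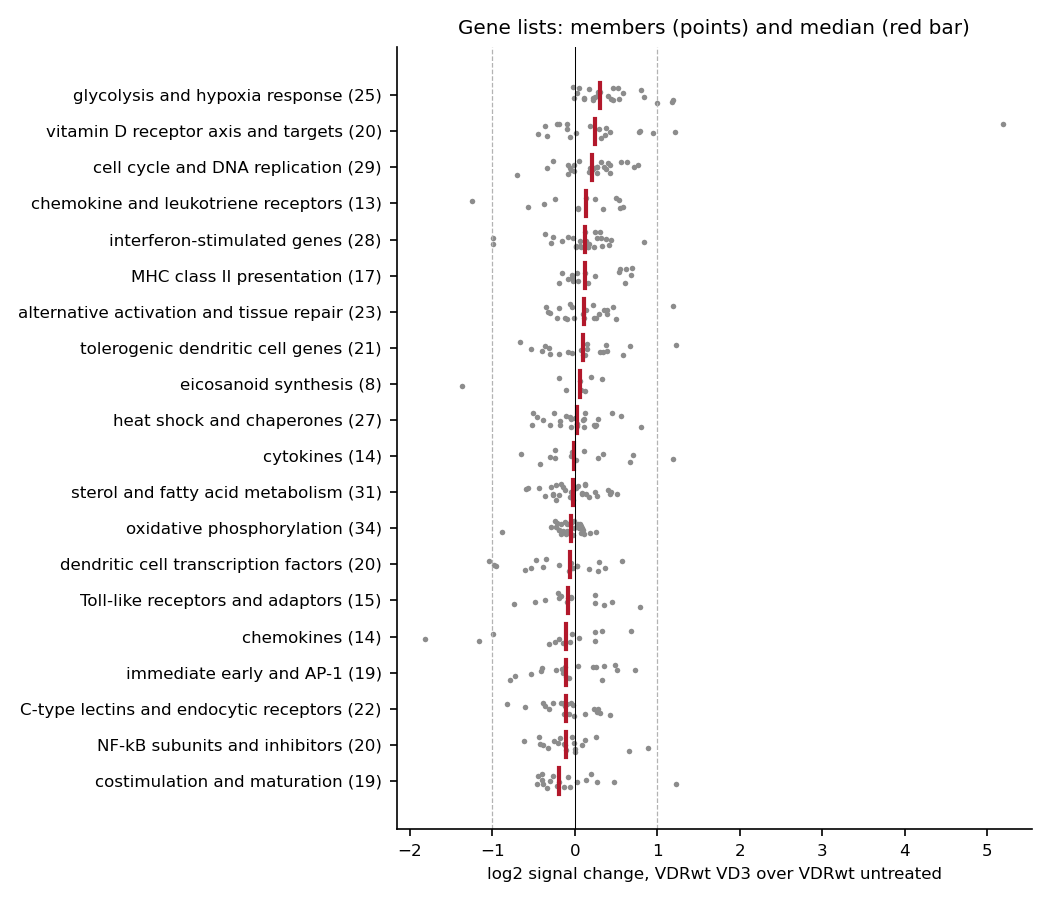
log2 change with VD3 alone in VDRwt (horizontal) of the kept members of 20 gene lists, 1 point per gene, with the list's median as a red bar and the number of kept members in brackets; dashed lines mark 2-fold. Medians run from -0.20 (costimulation and maturation) to 0.31 (glycolysis and hypoxia response), and the far point at 5.19 is Cyp24a1, whose untreated signal was Absent.

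The largest differences among genes Present on both arrays, with a signal of at least 100 on one, were mostly outside these lists. On the higher side Dio2, the deiodinase that activates thyroid hormone, had 34.1 and 133.2. Pml, the organiser of nuclear bodies, had 83.5 and 276.3, and it was higher with VD3 in all 4 pairs, by 3.04, 0.84 and 2.58 in the others, though it was Present on none of those arrays. Aldh3b1, an aldehyde dehydrogenase, had 198.6 and 500.3, with 0.50 in the VDRwt TNFa pair. Prkdc, the catalytic subunit of the DNA-dependent protein kinase, had 45.9 and 119.4, and 53.7 and 142.6 with TNFa. Pvt1, a long non-coding RNA beside Myc, had 42.9 and 146.9. Hnf4aos, Loxl4, Crhr1, S100a5 and Eogt completed the 12 highest, with changes of 1.22 to 1.92. For 7 of the 12 the VD3 array held the highest of all 8 signals, and for 5 the untreated array held the lowest. The 12 were picked for their change between these same arrays, which favours such ranks, so no weight rests on them.

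On the lower side Unc50, a Golgi membrane protein gene, had 546.9 and 115.6, yet its other probe sets lay between -0.02 and 0.31. Mdh1, the cytosolic malate dehydrogenase, had 2325.5 and 753.9 on its brightest probe set, one of a kind whose probes can match other transcripts, and 0.14 and 0.22 on the others. Map2k4, a kinase upstream of JNK and p38, had 511.2 and 177.8, with a second probe set at -0.18. Spred1, an inhibitor of Ras signalling, had 268.2 and 100.0, and its other probe sets were lower too, by -1.17 to -0.27. Ifi204, an interferon-inducible DNA sensor, had 113.6 and 49.1, but it belongs to a family of similar genes. Malat1, a long nuclear RNA, had 754.9 and 276.0, and on the VDRmut untreated array it was Absent at 32.4. Its other probe sets lay between -1.75 and 0.36. In the other pairs its VD3 change swung widely, at -3.06 in VDRwt with TNFa, 3.08 in VDRmut without TNFa and -6.17 in VDRmut with TNFa. Stap2 and Ccdc186 were at -1.23 and -1.32. For 8 of these 12 genes the VD3 array held the lowest of all 8 signals, a rank that their choice by the same arrays favours.

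**Figure D4:**
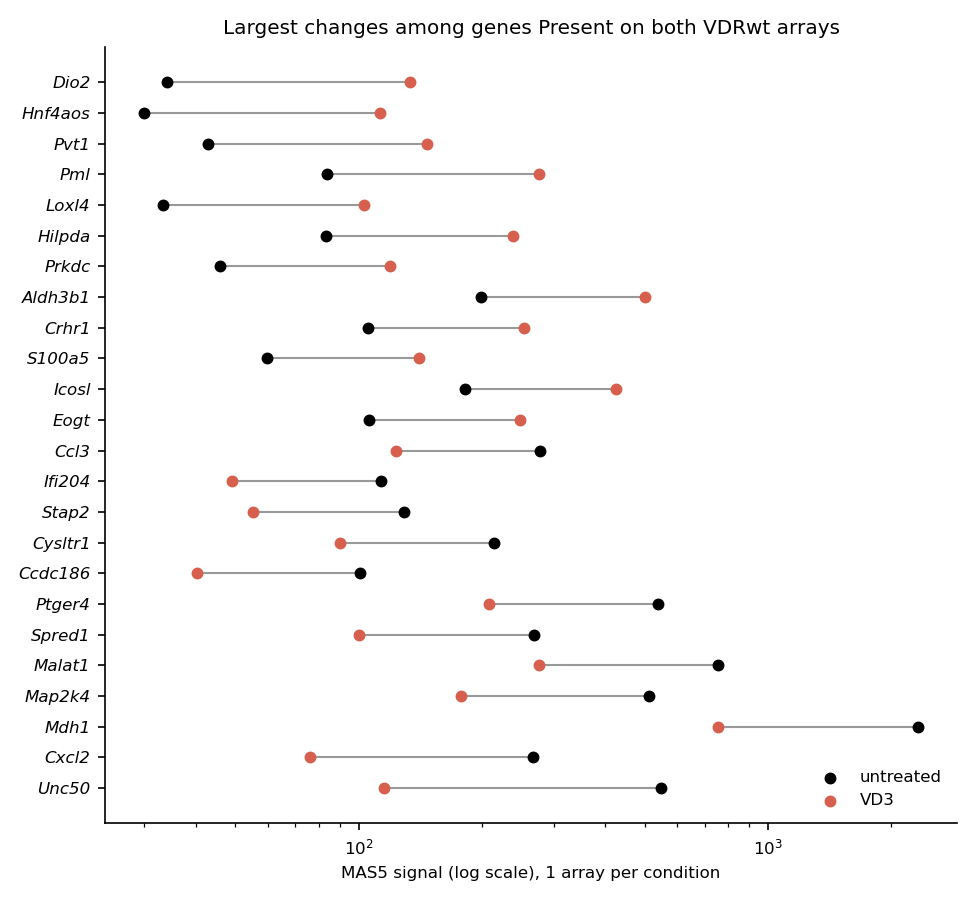
MAS5 signal (log axis) of the 12 genes highest and the 12 lowest in change among those Present on both VDRwt arrays, black untreated and red VD3, 1 array each. Dio2 at the top went from 34.1 to 133.2 and Unc50 at the bottom from 546.9 to 115.6; no point has an error bar because no condition was repeated.

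Where a gene had several kept probe sets, the others often did not follow. Of the 82 probe sets past 2-fold on the higher side whose gene had another kept probe set, 48 had the same sign as the median of the others, and 4 had a further probe set past 2-fold. On the lower side these numbers were 65 and 9 of 98. Hilpda, Ddit4, Hk2 and Cyp24a1 had no second kept probe set.

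Genes also crossed the detection call. Of the 7241 kept genes, 75 were Present with VD3, Absent without and at least 2-fold higher, and 22 the reverse. Without the 2-fold limit, 1286 probe sets were Present only on the untreated array and 481 only on the VD3 array. Their median log2 changes were -0.05 and 0.56. Each was kept through the array that called it Present, so no weight rests on these counts. The brightest genes that gained a call at 2-fold were Rnf113a1 (120.1 and 241.6), Fbxo31 (92.9 and 195.2) and Slc22a12 (71.0 and 158.0). On these signals they were 2.0 to 2.2-fold higher. The brightest that lost it was Fen1, the flap endonuclease of replication, with 955.9 and 386.0, although its second probe set was higher by 0.34. Slc7a5, a transporter of large neutral amino acids, had 282.3 and 106.5. Sema4b, a semaphorin, had 114.3 and 26.6, which is 4.3-fold lower on these signals.

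The other 3 VD3 pairs share no array with this one. In each of them more probe sets passed 2-fold: 15.4% in VDRwt with TNFa, 11.0% in VDRmut without TNFa and 15.0% in VDRmut with TNFa, against 3.08% here. On the 2 TNFa arrays without VD3 the 5′ probe set for 18S ribosomal RNA read 9028 (VDRwt) and 6847 (VDRmut). It read 224 and 58.2 on the matching VD3+TNFa arrays, and 21.1 and 72.6 on the pair described here. Each TNFa pair thus set arrays of unlike 18S signal against each other. The part of this in the changes given for the TNFa pairs, in either genotype, was not tested. The VDRwt TNFa arrays were scanned on another day, and their fluidics protocols differed (EukGE-WS2 for TNFa, FlexGE-WS2 for VD3+TNFa), so VD3 and protocol cannot be told apart in the one other VDRwt pair, which enters the limma effect. These fields are empty for VDRmut. Over the 12146 kept probe sets the changes of this pair correlated with those of the VDRwt TNFa pair at a Pearson r of 0.025 and with those of the VDRmut pair without TNFa at 0.10, as a description across probe sets that share the arrays' scaling.

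Of the 134 higher genes 18 (13.4%) were at least 2-fold higher in the VDRwt TNFa pair as well and 12 (8.96%) were 2-fold lower there. Over all kept genes these shares were 7.22% and 6.63%, against background shares of 6.84% and 8.57% of that pair's own probe sets. Of the 56 lower genes 9 (16.1%) were lower there too and 8 (14.3%) higher. Among the 225 higher probe sets, a positive change was found for 49.3% in VDRwt with TNFa, 69.8% in VDRmut without TNFa and 29.8% in VDRmut with TNFa, where all kept probe sets had 50.4%, 53.4% and 48.9%. In VDRwt with TNFa 33 of the 225 were at least 2-fold higher (14.7%, beside 7.48% of all kept probe sets) and 26 lower (11.6%, beside 7.03%). In VDRmut without TNFa 42 were higher (18.7%, beside 8.91%) and 15 lower (6.67%, beside 3.01%). In VDRmut with TNFa 14 were higher (6.22%, beside 6.06%) and 37 lower (16.4%, beside 8.11%). Of the 149 lower probe sets, 15 were higher and 28 lower in VDRwt with TNFa, 23 and 26 in VDRmut without TNFa, and 9 and 33 in VDRmut with TNFa. Counted over each pair's own probe sets, 7.81% were higher and 3.20% lower in VDRmut without TNFa, and 5.89% and 9.09% in VDRmut with TNFa. Genes past 2-fold here were thus found on both sides in every other pair.

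Only Hilpda and Ablim1 among the 18 were under 1.5-fold in both VDRmut pairs, and none of the 9 lower genes was. Ablim1, an actin-binding LIM protein, had 84.1 and 180.6 without TNFa and 39.8, Absent, and 137.6 with it. Havcr2, the inhibitory receptor TIM-3, had 90.9 and 169.7 in this pair and 50.9 and 121.7 with TNFa in VDRwt, while in VDRmut it was lower with VD3, at 137.2 and 98.6 without TNFa. Its difference between genotypes was 1.56 (limma, unadjusted p = 0.0088, adjusted p = 1). Clcn3, a chloride-proton exchanger, had 152.9 and 281.3, but its other probe sets were at -0.42 and -0.23.

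Some genes read the same way whether or not the receptor was intact. Counting at least 1.5-fold in each of the 4 pairs, 8 of the 7241 kept genes were higher and 10 lower with VD3. In this pair alone 522 (7.21%) were at least 1.5-fold higher and 319 (4.41%) lower. Whether the 8 and 10 exceed what unrelated changes would give was not tested. Cat, the catalase that breaks down hydrogen peroxide, had 754.3 and 415.5 in this pair, with changes of -1.53, -0.78 and -1.24 in the others. The next 3 were picked out after their values were seen. Bcl6, a transcriptional repressor, had 101.3 and 51.4, with changes of -0.98, -0.75 and -0.95 in the others. Trem1, an amplifying receptor of myeloid cells, had 117.7 and 253.9 and was higher by 3.06, 0.88 and 1.86 in the others. Sox4, a transcription factor of progenitors, had 116.5 and 53.7 and was lower in all, by -3.45 with TNFa in VDRwt. For Cat the limma effect in VDRwt was -1.19 ± 0.28 (SE; adjusted p = 0.999).

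The limma fit gave 0 of 12832 probe sets for the VD3 effect in VDRwt (0% called) and 0 for its difference from VDRmut (0% called) at an adjusted p of 0.05. At an unadjusted p of 0.05 there were 392 and 140. The fit had 3 residual degrees of freedom. No condition was repeated, so these hold no spread between replicates. They hold noise mixed with effects that the fit left out. Those are a VD3 change that differs with TNFa and a TNFa change that differs between genotypes. Where such effects are present, they enlarge the standard errors and the adjusted p. The counts of 0 therefore cannot tell noise from a VD3 change that depends on TNFa. Because the arrays are not stated to come from separate cultures, the noise itself may be technical.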

How the data were processed

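RNA of 8 dendritic cell samples, 1 per condition, was hybridised to Affymetrix MOE430A arrays. Per the file headers, the authors deposited a linear intensity (Signal) and a Present, Marginal or Absent call per probe set, for 22690 probe sets; MAS5 is named, without a version, per the submitters' processing notes. Each array had a 2% trimmed mean near 200.08. The 64 control probe sets were left out, signals under 0.1 were raised to 0.1 and the deposited intensities were put on the log2 scale. For genes with several probe sets the brightest (mean over 8 arrays) was used, and symbols came from the platform annotation (20393 probe sets with 1 symbol, 691 with several, 1606 with none; 20364 matched RefSeq of GRCm38.p6, 0 changed). limma 3.58.1 in R 4.3.3 (lmFit, eBayes with trend, Benjamini-Hochberg) was fitted to the 12832 probe sets Present on at least 2 of 8 arrays, with terms for genotype and TNFa and 1 VD3 term per genotype. It was tested on simulated data.

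The number of arrays limits the precision. The gene lists (28, with 688 entries, 8 of them marker lists) and the rules were chosen with earlier results of these data known. Named genes were the kept vitamin D genes, the 12 highest and 12 lowest among genes Present on both arrays with a signal of 100 or more on one, the 6 brightest to gain or lose a Present call at 2-fold, up to 4 members of each list past 2-fold, genes past 2-fold in both VDRwt pairs and under 1.5-fold in both VDRmut pairs, and the 5 of smallest limma p. Other list members are given to describe their list, and the range from 7000 was added after the data were seen.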

Additional observations from a re-analysis of the deposited data

How the results depend on the processing

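With signals under 50 raised to 50, 73 probe sets were at least 2-fold higher with VD3 alone and 69 lower. Requiring Present on both arrays left 82 and 80, and with no filter on calls there were 2446 and 1324. Counted as genes they were 134 and 56. Quantile normalization gave 142 higher and 209 lower, so 40.5% of calls were higher against 60.2% as deposited; for these counts the cause was not tested beyond the filters' own construction. Centring on the median of Present probe sets (236 and 143) and the series matrix values (225 and 149) stayed close. The limma counts were 0 under all alternatives run, with 110 to 1092 probe sets at an unadjusted p of 0.05 for the VD3 effect in VDRwt; the highest came without the VDRwt untreated array and the lowest without the VDRwt TNFa array. Lifting signals to 50 took Cyp24a1 to 0.68, and averaging a gene's probe sets took Unc50 to -0.65, Mdh1 to -0.42, Fen1 to -0.48, Tcf4 to -0.26, Clcn3 to 0.08 and Cdkn1a to 0.05 (log2). No paired analysis was possible because each condition has 1 array and the labels carry no replicate numbers.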
